A study of Mus musculus with 16 samples.

Results

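Transcripts of 10 genes of toll-like receptor recognition and of the feedback on NF-kB signaling were followed in primary brain endothelial cells that carry human *APOE3* or *APOE4*. The set was named by function, with earlier results of these data known, and no measured value enters the rule. It holds the receptors Tlr2 and Tlr4, the co-receptor Cd14, the receptor-proximal brake Irak3, the NF-kB subunits Nfkb1 and Nfkb2, the NF-kB inhibitors Nfkbia and Nfkbie, the ubiquitin-editing enzyme Tnfaip3 and the ubiquitin ligase Birc3. All 10 were found among the 39057 rows of the count table, and all 10 were among the 12481 genes that passed the filter on low counts, each with at least 110 counts in every library.

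The cells came from the cerebral cortex of male and female targeted replacement mice aged 21 to 28 days, in which either human isoform is expressed from the promoter of mouse Apoe. Both genotypes received 8 µg/ml puromycin during the culture, which selects for endothelial cells, and no other treatment. Polyadenylated RNA was sequenced from 8 *APOE3* and 8 *APOE4* cultures, with 4 males and 4 females per genotype and 1 brain per well. Libraries are named here by genotype and the animal number in their label, and p-values describe the spread between these wells. The numbers run from 25 to 33 in *APOE3* and from 35 to 43 in *APOE4*. Anything that followed this order therefore cannot be told apart from genotype.

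Toll-like receptors recognize microbial products and signal through adaptor proteins and kinases to the IkB kinases, which mark the IkB proteins for degradation and so release NF-kB dimers to the nucleus. NF-kB then raises transcription of chemokines and adhesion molecules, and of the ubiquitin ligase c-IAP2. It also raises that of its own inhibitors, among them IkB alpha and A20, so that the response is self-limiting. In the brain endothelium this pathway is known for the response to lipopolysaccharide and for the recruitment of leukocytes to the vessel wall.

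Several of these genes are known NF-kB targets, so the sequence before their start sites is shown first. RefSeq promoter windows of 300 bases on build GRCm38.p6, with 250 bases before the start site, were matched by symbol for 7 of the 10 genes. They gave 11 windows, because some genes have more than 1 start site. The kappaB consensus, the decamer bound by NF-kB dimers, was searched on both strands. It was found in 7 of the 11 windows, belonging to 5 genes, whereas 4.51% of all 32851 windows of the same length hold it. The stretches below run 5′ to 3′ on the strand of each gene, from 180 bases before to 9 bases after the RefSeq start site, and capitals mark a kappaB match on either strand, with overlapping matches merged into 1 run. The first 5 are shown because they hold a match, and the Irak3 stretch because Irak3 had the lowest p-value of the 10 genes in the genotype comparison.
Tlr2 (chr3:83841599-83841788, minus strand): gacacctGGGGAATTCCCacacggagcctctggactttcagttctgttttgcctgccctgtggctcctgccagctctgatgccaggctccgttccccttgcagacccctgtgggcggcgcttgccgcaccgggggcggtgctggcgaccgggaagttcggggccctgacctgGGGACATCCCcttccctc
Nfkb2 (chr19:46304557-46304746, plus strand): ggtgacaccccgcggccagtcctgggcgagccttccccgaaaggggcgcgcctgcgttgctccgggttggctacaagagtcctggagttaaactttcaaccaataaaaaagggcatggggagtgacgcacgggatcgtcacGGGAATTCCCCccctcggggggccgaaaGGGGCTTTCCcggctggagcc
Nfkbia (chr12:55492638-55492827, minus strand): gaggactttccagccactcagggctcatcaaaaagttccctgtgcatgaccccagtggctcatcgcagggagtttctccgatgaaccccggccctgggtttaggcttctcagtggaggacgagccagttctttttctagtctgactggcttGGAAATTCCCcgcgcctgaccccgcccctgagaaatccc
Nfkbie (chr17:45555520-45555709, plus strand): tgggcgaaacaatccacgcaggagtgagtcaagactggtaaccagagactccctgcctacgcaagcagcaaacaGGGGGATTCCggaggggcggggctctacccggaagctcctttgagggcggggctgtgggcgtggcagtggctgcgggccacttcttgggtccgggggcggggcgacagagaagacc
Tnfaip3 (chr10:19015401-19015590, minus strand): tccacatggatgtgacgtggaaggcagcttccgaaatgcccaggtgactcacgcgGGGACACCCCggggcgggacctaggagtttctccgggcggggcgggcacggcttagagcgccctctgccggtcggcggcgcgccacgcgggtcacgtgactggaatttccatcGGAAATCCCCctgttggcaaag
Irak3 (chr10:120202121-120202310, minus strand): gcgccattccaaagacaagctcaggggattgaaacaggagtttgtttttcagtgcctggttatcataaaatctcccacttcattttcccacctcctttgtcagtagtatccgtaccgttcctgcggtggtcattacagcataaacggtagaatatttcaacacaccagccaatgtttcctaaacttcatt

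Tlr2 and Nfkb2 each held 2 separate runs, at 173 and 8 bases before the Tlr2 start and at 39 and 11 bases before the Nfkb2 start. In Tlr2 and Nfkb2 the longer run holds a palindromic match that reads as a kappaB decamer on both strands. The 2 other Nfkb2 windows overlap each other and also held matches, 1 of which lies in both. It is the only match of 1 of these windows, and the other also holds a match of its own. Nfkbia held 1 match, 29 bases before its start, Nfkbie 1 match at 106 bases before, and Tnfaip3 2 matches at 125 and 12 bases before the start shown. Its other window held 0. The letters of the consensus were absent from both Irak3 windows and from the Birc3 window. Tlr4, Cd14 and Nfkb1 have no sequence shown. The RefSeq start sites shown for Tlr2, Nfkb2 and Tnfaip3 lie inside the GENCODE gene models whose positions are given with their levels. A match describes the sequence and is neither a measured binding site nor a cause of the transcript levels that follow.

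Total counts per library were 12717847 to 18624417. Human APOE had 7672 to 22318 counts in every library, against 128 to 290 counts assigned to mouse Apoe. The cells had the transcripts of endothelium: Pecam1, Cdh5, Cldn5 and Slc2a1 were at means of 584, 817, 926 and 398 RPKM (counts scaled to exon length and library size) over the 16 libraries, whereas Mfsd2a, a transporter of the blood-brain barrier, was at 1.52. All 20 brain endothelial markers listed passed the filter on low counts, and of these Emcn was called higher and Slco1c1 lower in *APOE4* libraries. In bulk RNA, fewer cells of a type and less RNA per cell cannot be told apart.

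Expressed per kilobase of exon, the inhibitor was far more abundant than the receptors. Nfkbia, which encodes IkB alpha, was highest at 200.7 ± 7.85 RPKM (mean ± SD, n = 16 libraries), and 1.17% of the tested genes had a mean level as high. Nfkb2 followed at 30.6 ± 1.28, then Cd14 at 29.3 ± 6.68, Nfkb1 at 23.2 ± 1.33, Birc3 at 18.2 ± 0.701, Irak3 at 13.2 ± 2.02 and Nfkbie at 11.03 ± 1.29 on the same scale. Tnfaip3 was at 7.85 ± 0.537, Tlr4 at 5.67 ± 0.490 and Tlr2 lowest at 3.32 ± 0.717. Ranges over libraries did not overlap between Nfkbia and Nfkb2, between Nfkb1 and Birc3 or between Tnfaip3 and Tlr4. Every other pair of neighbours in this order overlapped, and Nfkb2 exceeded Cd14 in 10 of 16 libraries.

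**Figure D1:**
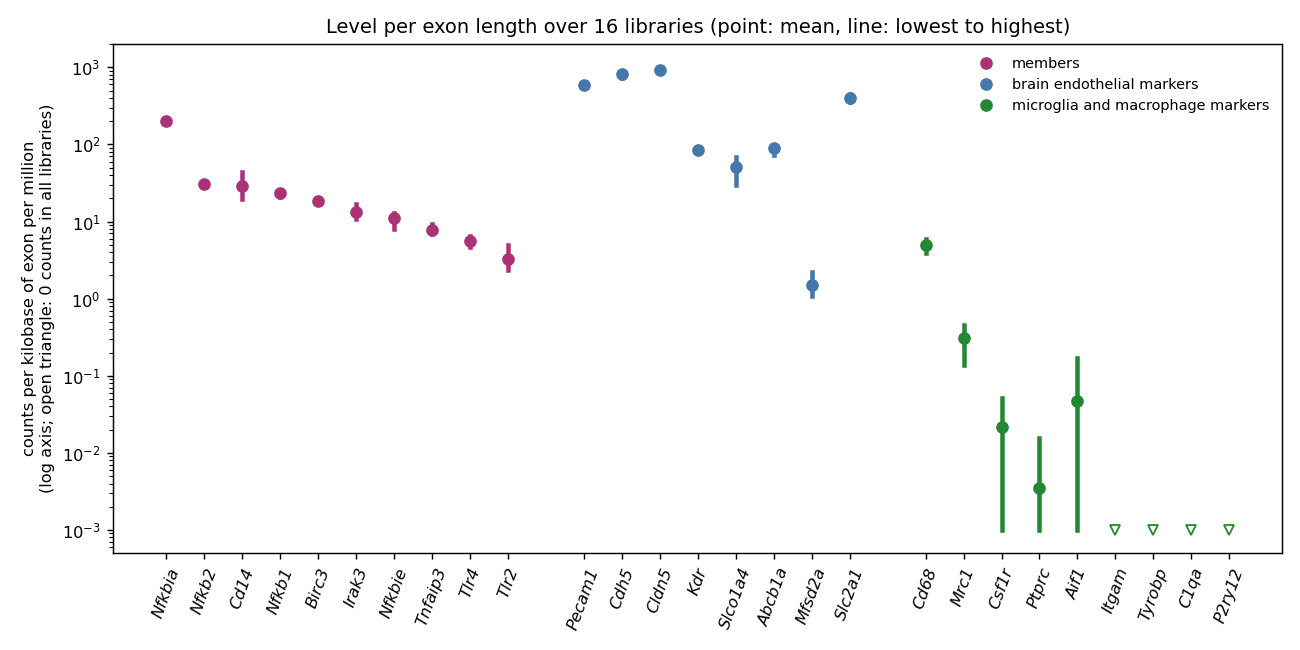
Levels of the 10 genes beside markers of brain endothelial cells and of microglia and macrophages, in RPKM (counts per kilobase of exon, scaled to library size) on a log axis. Points are means over 16 libraries, lines run from the lowest to the highest library (drawn to the bottom of the axis where the lowest is 0), and open triangles mark genes with 0 counts in every library. Nfkbia stands at 200.7 and Tlr2 at 3.32, while Itgam, Tyrobp, C1qa and P2ry12 had no counts.

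Since Tlr2, Tlr4, Cd14 and Irak3 are also strongly used by microglia and macrophages, the markers of those cells were examined beside them. Of 20 such markers, 6 (Itgam, Tyrobp, C1qa, C1qc, P2ry12 and Trem2) had 0 counts in every library and 3 passed the filter on low counts. None of the 3 was called, and 1 had a log2 fold change above 0 and 2 below 0. The summed level of the 20 markers ran from 42.6 to 53.0 CPM (counts scaled to library size) in *APOE3* and from 46.5 to 52.3 in *APOE4* libraries. The difference in its log2 was 0.09 (exact permutation test, two-sided p = 0.0567), and without the 4 markers that other cell types also use it was -0.23 (p = 0.245, same exact test). Most of the summed level came from those 4 markers. Without them it ran only from 1.66 to 3.62 CPM in *APOE3* and from 1.48 to 2.95 CPM in *APOE4* libraries. With the mean log2 CPM of the 3 tested markers as a covariate, 4 genes of the set were again called, in a fit that called 8.95% of all genes. The log2 fold changes were then 0.42 for Tlr2, 0.49 for Cd14, 0.38 for Irak3 and -0.11 for Nfkb1. Markers of other leukocytes summed to 0.867 to 2.82 CPM in *APOE3* and 0.477 to 2.07 CPM in *APOE4* libraries, and those of pericytes and smooth muscle to 187.8 to 354.3 and 222.8 to 340.2 CPM. None of the tested markers of other leukocytes (1), pericytes and smooth muscle (7), fibroblasts (4), astrocytes (2), neurons (2) or oligodendrocytes (1) was called. Their median log2 fold changes were nonetheless 0.25 for pericytes and smooth muscle (6 of 7 above 0), 0.30 for fibroblasts (3 of 4), 0.39 for astrocytes (2 of 2) and 0.42 for neurons (2 of 2), and -0.30 and -0.59 for the single markers of other leukocytes and oligodendrocytes. The part of such cells in the results was not tested.

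The comparison of *APOE4* with *APOE3* asked whether the human isoform alters the basal transcript level of each gene. Of the 10 genes, 3 were higher in *APOE4* brain endothelial cells (Tlr2, Cd14 and Irak3), 1 was lower (Nfkb1) and 6 did not pass the test (edgeR quasi-likelihood F test, Benjamini-Hochberg adjusted p under 0.05 over all genes tested). Of all 12481 genes, 12.8% were called, 6.71% higher and 6.09% lower. The median log2 fold change was 0.10 over the 10 genes and -0.00022 over all genes tested. No gene of the set had all libraries of one genotype beyond all of the other, a separation found for 0.625% of the tested genes.

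**Figure D2:**
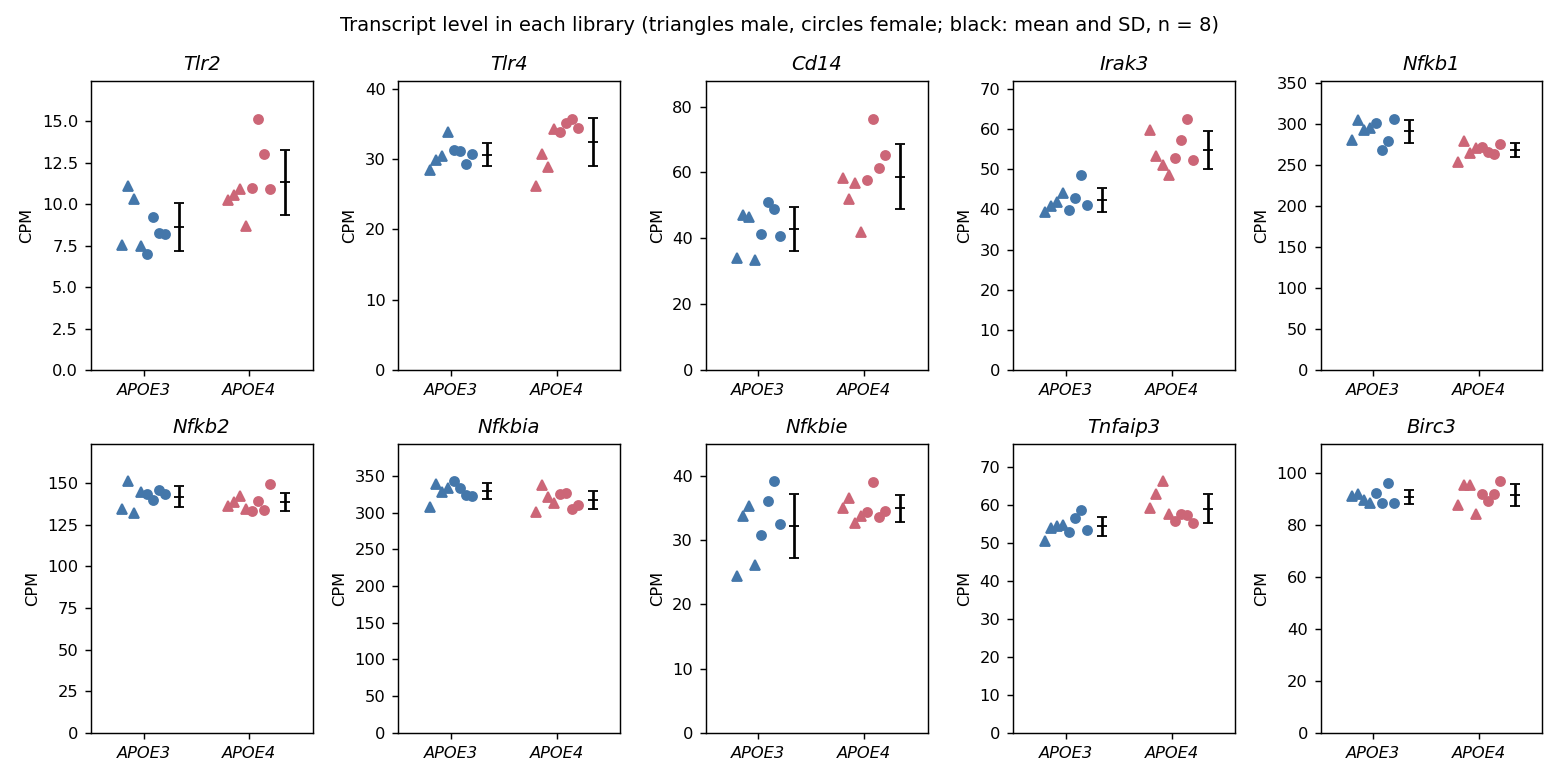
Transcript level of each gene in each of the 16 libraries, in CPM on an axis that starts at 0, with triangles for males, circles for females and the mean ± SD of 8 libraries in black. Tlr2, Cd14 and Irak3 sit higher in *APOE4* libraries, Nfkb1 sits slightly lower, and the libraries of the 2 genotypes overlap for all 10 genes.

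Among the receptors, Tlr2, which recognizes bacterial lipoproteins together with Tlr1 or Tlr6, was higher with *APOE4*. Tlr2 (ENSMUSG00000027995.10, chromosome 3 from 83836272 to 83841767, GRCm38) had a lowest, median and highest level of 7.02, 8.25 and 11.1 CPM in *APOE3* libraries and 8.72, 10.9 and 15.2 CPM in *APOE4* libraries. All 8 *APOE4* libraries were above the *APOE3* median, but 3 *APOE3* libraries were above the lowest *APOE4* library. Mean levels were 8.65 ± 1.45 and 11.3 ± 1.95 CPM (SD, n = 8 each), a log2 fold change of 0.39 (SE 0.111, edgeR adjusted p = 0.0277). It was a low transcript, with 110 to 240 counts per library. The call was lost in 5 of the 16 fits that left out 1 library, without *APOE3* 28 (adjusted p = 0.0545), *APOE3* 30 (0.0633), *APOE3* 33 (0.0532), *APOE4* 40 (0.0555) or *APOE4* 41 (0.0645).

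Tlr4, the receptor for lipopolysaccharide, did not pass the test. Tlr4 (ENSMUSG00000039005.13, chromosome 4 from 66827584 to 66930284) ran from 28.5 through a median of 30.6 to 33.8 CPM in *APOE3* and from 26.2 through 34.0 to 35.7 CPM in *APOE4* libraries. *APOE4* libraries were both the lowest and the highest, with 5 above every *APOE3* library and 1 below all of them. The log2 fold change was 0.08 (SE 0.0590, edgeR adjusted p = 0.373), and with correction for GC content and gene length it was 0.02.

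Cd14 hands lipopolysaccharide and other ligands to the receptors and had the largest fold change of the set. Cd14 (ENSMUSG00000051439.6, chromosome 18 from 36725067 to 36726798) ran from 33.5 through a median of 43.9 to 50.9 CPM in *APOE3* libraries and from 41.9 through 58.1 to 76.3 CPM in *APOE4* libraries. Here 7 of the 8 *APOE4* libraries were above every *APOE3* library, and only 1, *APOE4* 38, fell within their range. Mean levels were 42.9 ± 6.59 and 58.7 ± 9.95 CPM, a log2 fold change of 0.46 or 37.1% (SE 0.102, edgeR adjusted p = 0.0100, n = 8 each), and all 16 fits without 1 library kept the call.

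Irak3, also called IRAK-M, lacks an active kinase and restrains signaling downstream of the receptors. Irak3 (ENSMUSG00000020227.10, chromosome 10 from 120141648 to 120202130) ran from 39.4 through a median of 41.5 to 48.6 CPM in *APOE3* libraries and from 48.5 through 53.1 to 62.5 CPM in *APOE4* libraries. The genotypes were almost separate, since a single *APOE3* library (*APOE3* 32, the highest) lay just above the lowest *APOE4* library. Mean levels were 42.3 ± 2.96 and 54.7 ± 4.72 CPM, a log2 fold change of 0.37 or 29.2% (SE 0.0536, edgeR adjusted p = 0.00317, n = 8 each), and the call held in all 16 fits without 1 library. Irak3 shares 192 of its 3676 exon bases with Tmbim4 on the opposite strand. Tmbim4 had 10800 counts over all libraries against 12116 for Irak3. The strand setting of the counting is not given in the sources used here, so reads in the shared bases may belong to either gene.

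Of the NF-kB subunits, Nfkb1, which encodes p105 and its product p50, was lower with *APOE4*. Nfkb1 (ENSMUSG00000028163.17, chromosome 3 from 135584655 to 135691547) ran from 267.6 through a median of 293.6 to 306.2 CPM in *APOE3* and from 253.4 through 268.1 to 279.7 CPM in *APOE4* libraries. None of the 8 *APOE4* libraries reached the *APOE3* median, and 2 *APOE3* libraries fell within the *APOE4* range. The log2 fold change was -0.12 (SE 0.0329, edgeR adjusted p = 0.0251), a difference of -7.83%. It was not called without *APOE3* 26 (adjusted p = 0.0519), *APOE3* 30 (0.0571), *APOE3* 33 (0.0608) or *APOE4* 41 (0.0544).

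Nfkb2, which encodes p100 and the p52 subunit of the noncanonical pathway, did not pass the test. Nfkb2 (ENSMUSG00000025225.14, chromosome 19 from 46304320 to 46312385) ran from 131.8 through a median of 143.7 to 151.0 CPM in *APOE3* and from 133.2 through 137.5 to 149.2 CPM in *APOE4* libraries, with the *APOE4* range inside that of *APOE3*. The log2 fold change was -0.04 (SE 0.0328, edgeR adjusted p = 0.518). Nfkb2 shares 531 of its 4584 exon bases with AC114539.1, a noncoding RNA gene on the opposite strand that has no row in the count table. It also shares 299 with Psd on the opposite strand, which had 264 counts over all libraries against 34983 for Nfkb2. Since the strand setting is not given, reads in these shared bases may belong to either gene.

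The IkB genes also did not pass. Nfkbia (ENSMUSG00000021025.8, chromosome 12 from 55489410 to 55492647), the most promptly induced inhibitor, ran from 308.1 through a median of 331.0 to 342.3 CPM in *APOE3* and from 300.6 through 317.2 to 337.2 CPM in *APOE4* libraries, and the log2 fold change was -0.05 (SE 0.0312, edgeR adjusted p = 0.298). The 8 libraries of each genotype differed little among themselves, with SDs of 10.9 and 12.3 CPM. Nfkbie (ENSMUSG00000023947.7, chromosome 17 from 45555703 to 45563169), which encodes IkB epsilon, ran from 24.4 through 33.1 to 39.1 CPM in *APOE3* and from 32.6 through 34.4 to 39.1 CPM in *APOE4* libraries. The *APOE3* libraries spread more widely, with an SD of 4.97 against 2.05 CPM, and the log2 fold change was 0.12 (SE 0.0773, edgeR adjusted p = 0.343).

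Tnfaip3 encodes A20, which removes activating ubiquitin chains from signaling intermediates, and it lay just outside the threshold. Tnfaip3 (ENSMUSG00000019850.11, chromosome 10 from 19000910 to 19015657) ran from 50.5 through a median of 54.2 to 58.7 CPM in *APOE3* and from 55.3 through 57.7 to 66.2 CPM in *APOE4* libraries. All 8 *APOE4* libraries were above the *APOE3* median, and 2 *APOE3* libraries were above the lowest *APOE4* library. The log2 fold change was 0.12 (SE 0.0411, edgeR adjusted p = 0.0625), and the adjusted p was 0.0489 without *APOE3* 31, 0.0414 without *APOE3* 32 and 0.0418 without *APOE4* 43.

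Birc3, which encodes c-IAP2, a ligase that ubiquitinates intermediates of tumor necrosis factor and toll-like receptor signaling, showed the smallest difference. Birc3 (ENSMUSG00000032000.17, chromosome 9 from 7848699 to 7873186) ran from 88.6 through a median of 90.5 to 96.2 CPM in *APOE3* and from 84.1 through 91.9 to 96.8 CPM in *APOE4* libraries. The log2 fold change was 0.01 (SE 0.0322, edgeR adjusted p = 0.863), and the *APOE3* range lay inside that of *APOE4*.

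Transcripts of the cell cycle moved with genotype and are therefore given beside these results. Of 30 cell cycle genes, 27 were called higher in *APOE4* libraries, and their mean log2 CPM was 5.59 ± 0.349 in *APOE3* and 6.19 ± 0.274 in *APOE4* libraries (exact permutation test, two-sided p = 0.00155, n = 8 each). With this score as a covariate no gene of the set was called, and 0 of all 12481 genes (edgeR, adjusted p under 0.05). Without adjustment 912 genes had a p under 0.05, 7.31% of those tested, and Cd14 and Irak3 were the 2 genes of the set among them. The log2 fold changes were then 0.25 for Tlr2, 0.34 for Cd14, 0.25 for Irak3 and -0.03 for Nfkb1 (edgeR adjusted p = 0.744, 0.606, 0.439 and 0.895). Genotype and the score overlap in these libraries, and the part of the score in the differences was not tested.

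Within genotypes, Nfkb1 followed the cell cycle score inversely. After each genotype mean had been subtracted, Pearson's r over 16 libraries was -0.83 (permutation p = 0.00015, adjusted over the 10 genes 0.0015) and Spearman's rho -0.80 (permutation p = 0.00043, adjusted 0.0043). It was -0.79 within *APOE3* and -0.91 within *APOE4* libraries, and -0.68 without *APOE3* 31 and *APOE4* 35. This comparison was chosen after the data had been seen. Irak3 had an r of 0.52 (permutation p = 0.0425, adjusted 0.213), and none of the other 9 genes passed the adjusted threshold.

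The sexes were compared in a fit of 4 groups of 4 libraries. In males 0 genes were called, in females 0, and 0 differed between the sexes (edgeR, adjusted p under 0.05, no other tool run), where 1775, 2428 and 345 genes had an unadjusted p under 0.05 (14.2%, 19.5% and 2.76% of those tested). Irak3 had nearly equal log2 fold changes, 0.35 (SE 0.0772) in males and 0.39 (SE 0.0768) in females. Cd14 was 0.38 (SE 0.127) and 0.52 (SE 0.125), and Nfkb1 -0.13 (SE 0.0479) and -0.10 (SE 0.0478).

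Tlr2 differed more between the sexes, with a log2 fold change of 0.15 (SE 0.146) in males and 0.61 (SE 0.145) in females. In females its level was 7.02 to 9.22 CPM in *APOE3* and 10.9 to 15.2 CPM in *APOE4* libraries, without overlap, whereas in males it was 7.48 to 11.1 and 8.72 to 10.9 CPM. Libraries of the genotypes did not overlap for 9.34% of all tested genes in females and 7.98% in males. In the set this held for Tlr2, Tlr4, Cd14 and Irak3 in females and for Irak3, Nfkb1 and Tnfaip3 in males. Tlr4 was 29.3 to 31.3 CPM in *APOE3* females and 33.8 to 35.7 CPM in *APOE4* females, and overlapped in males. Tnfaip3 had the opposite order, with 0.20 (SE 0.0535) in males and 0.03 (SE 0.0535) in females. The difference between sexes had an unadjusted p of 0.0366 for Tlr2, 0.0557 for Tlr4 and 0.0333 for Tnfaip3 in edgeR, and an adjusted p of 1.0 for each of the 10 genes.

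**Figure D3:**
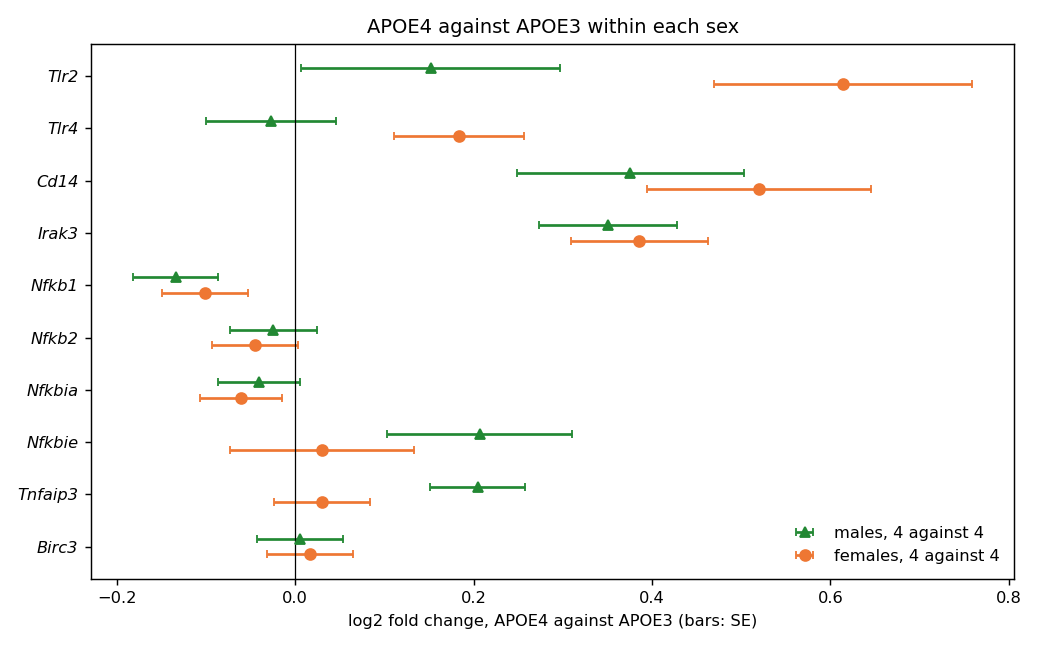
Log2 fold change of *APOE4* against *APOE3* for each gene in males (triangles) and females (circles), with bars of 1 SE from the fit of 4 groups of 4 libraries. Tlr2 lies at 0.15 in males and 0.61 in females, Irak3 at 0.35 and 0.39, and no difference between sexes passed the adjusted threshold.

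Some of the genes varied together between libraries of 1 genotype. Of 45 pairs, 2 had a Benjamini-Hochberg adjusted Pearson p under 0.05 after genotype means were subtracted. Tlr2 and Cd14 had r = 0.77 (permutation p = 0.00147, adjusted 0.0331) and rho = 0.78 (permutation p = 0.00129, adjusted 0.0547), with an r of 0.65 within *APOE3* and 0.88 within *APOE4* libraries. Without *APOE3* 26 and *APOE4* 40, r was 0.71. Cd14 and Nfkbie had r = 0.73 (permutation p = 0.00049, adjusted 0.0221) and rho = 0.73 (permutation p = 0.00243, adjusted 0.0547), with 0.95 within *APOE3* and 0.50 within *APOE4*, and 0.82 without *APOE4* 38 and *APOE4* 40. The median r over all pairs was 0.18, the lowest -0.46 for Irak3 and Nfkb1. With the means of genotype and sex subtracted, r was 0.86 for Tlr2 and Cd14 (permutation p = 0.00163, adjusted 0.0733) and 0.78 for Cd14 and Nfkbie (permutation p = 0.00917, adjusted 0.201), so 0 pairs passed.

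**Figure D4:**
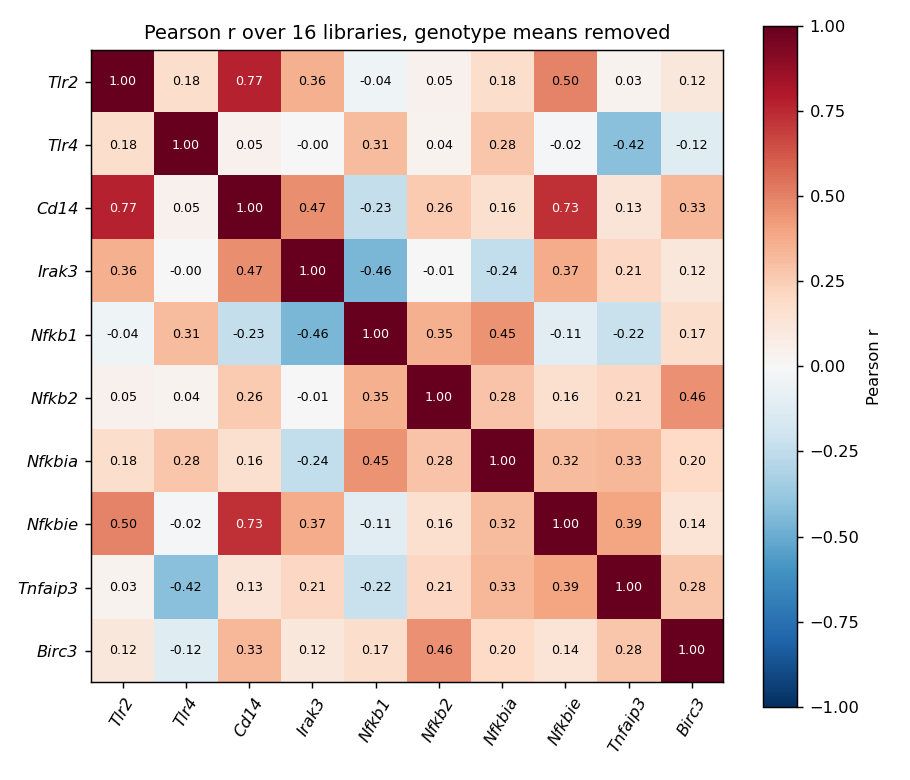
Pearson's r between each pair of the 10 genes over 16 libraries, on log2 CPM with genotype means subtracted, with red above and blue below 0. The pairs Tlr2 and Cd14 (0.77) and Cd14 and Nfkbie (0.73) stand highest, and Irak3 and Nfkb1 (-0.46) lowest.

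Over the 16 libraries, again with genotype means subtracted, the 2 tested genes most like each called gene were as follows. For Cd14 they were Lcn2, the siderophore-binding protein lipocalin 2 (r = 0.86), and Gm6170 (r = 0.84), the latter at under 1 CPM. Tlr2 was most like Gbp3, an interferon-inducible GTPase (r = 0.86), and Mkrn1 (r = 0.84). Irak3 was most like Ppm1m (r = 0.84) and Pck2 (r = 0.83), and Nfkb1 like Hspa12b (r = 0.95) and Plcg1 (r = 0.94).

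Of the other pathway genes, the remaining receptors gave no call. Of 12 toll-like receptors, 5 passed the filter: Tlr2, Tlr4, the double-stranded RNA receptor Tlr3, Tlr6 and Tlr13. Tlr3 was the highest of the 5 per kilobase, at 8.75 RPKM, with a log2 fold change of 0.07 (edgeR adjusted p = 0.323). Tlr7, Tlr8 and Tlr11 had 0 counts in every library, and Tlr1, Tlr5, Tlr9 and Tlr12 at most 7. Tlr6 had a log2 fold change of 0.19 (SE 0.197) and Tlr13 of -0.14 (SE 0.220).

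Among 11 co-receptors and adaptors, of which 9 were tested, 3 were higher and none lower, where 12.8% of all genes were called. Beside Cd14 these were Ticam1, which encodes the adaptor TRIF (log2 fold change 0.20, SE 0.0559, edgeR adjusted p = 0.0281), and Hsp90b1, which encodes the receptor chaperone gp96 (0.24, SE 0.0474, edgeR adjusted p = 0.00643). The call of Ticam1 was kept in 11 of the 16 fits without 1 library and that of Hsp90b1 in all 16. Myd88, the adaptor shared by most of these receptors, was at 27.1 ± 2.63 and 29.0 ± 1.68 CPM and did not pass (edgeR adjusted p = 0.255). Ly96, the partner of Tlr4 in binding lipopolysaccharide, was at 3.87 ± 0.595 and 4.10 ± 0.631 CPM (edgeR adjusted p = 0.702).

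Of 18 receptor-proximal kinases and ligases tested, 2 were lower and none higher, where 12.8% of all genes were called. Map3k14, which encodes the kinase NIK of the noncanonical pathway, was at 11.01 ± 1.03 CPM in *APOE3* and 8.62 ± 0.853 CPM in *APOE4* libraries (log2 fold change -0.36, SE 0.0769, edgeR adjusted p = 0.00835). Peli2, a Pellino ubiquitin ligase, was at 29.9 ± 1.44 and 26.9 ± 0.705 CPM (log2 fold change -0.16, SE 0.0393, edgeR adjusted p = 0.0161), and its genotypes did not overlap. None of the 5 genes of the IkB kinase complex was called, nor any of the 7 IkB genes. Of the 5 NF-kB subunits Nfkb1 alone was called, and Rela was at 250.5 ± 7.86 and 253.1 ± 9.55 CPM.

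Of 23 negative regulators tested, 2 were higher and 1 lower, where 12.8% of all genes were called. Beside Irak3, Nlrc5 was higher, at 6.61 ± 1.25 CPM in *APOE3* and 11.1 ± 2.02 CPM in *APOE4* libraries (log2 fold change 0.74, SE 0.130, edgeR adjusted p = 0.00542). Nlrc5 is also known as the transactivator of MHC class I genes. Zfp36, which encodes tristetraprolin, a protein that speeds decay of cytokine messages, was lower, at 80.1 ± 7.28 CPM in *APOE3* and 65.9 ± 4.42 CPM in *APOE4* libraries (log2 fold change -0.28, SE 0.0530, edgeR adjusted p = 0.00609).

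Of the inducible NF-kB targets, 8 of 23 tested genes were higher and 0 lower, against 6.71% of all genes called higher, and their median log2 fold change was 0.12. This list was chosen with earlier results of these data known, so its share of called genes is no test of NF-kB targets. Selp, the adhesion molecule P-selectin, was at 7.61 ± 2.67 CPM in *APOE3* and 14.6 ± 4.78 CPM in *APOE4* libraries, which did not overlap (log2 fold change 0.94, SE 0.205, edgeR adjusted p = 0.00872). The chemokine genes Cxcl2, Cxcl1 and Ccl2 had log2 fold changes of 0.69, 0.65 and 0.55 (edgeR adjusted p = 0.0178, 0.0232 and 0.0359), and Lcn2 of 0.55 (edgeR adjusted p = 0.00614). The call of Ccl2 was kept in 7 of the 16 fits without 1 library and that of Cxcl1 in 14. In the set, Nfkbia, Nfkbie, Tnfaip3 and Birc3 had log2 fold changes of -0.05 to 0.12 and were not called. The brake Irak3, at 0.37, and the subunit Nfkb1, at -0.12, were called. Once the cell cycle score entered as covariate, the median of the inducible targets was -0.01 and no gene was called.

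**Figure D5:**
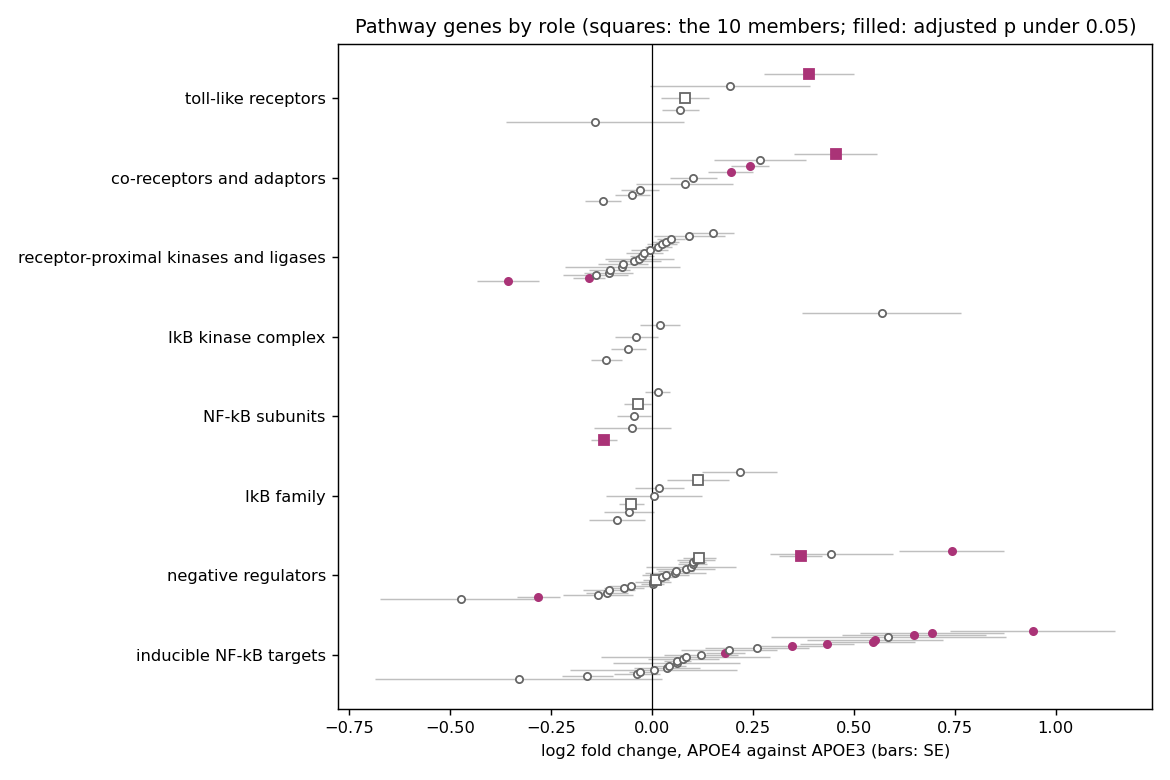
Log2 fold change of *APOE4* against *APOE3* with bars of 1 SE for every tested pathway gene, grouped by role. Squares are the 10 genes of the set and filled symbols have an adjusted p under 0.05, with 8 filled inducible targets on the higher side, and Map3k14 at -0.36 and Zfp36 at -0.28 among the few on the lower side.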

How the data were processed

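RNA sequencing counts of 16 cultures, 8 per genotype, were used as deposited: whole-number counts of reads per gene that the authors made without normalization. The submitters' processing notes name STAR, featureCounts, mm10 and hg38, and their versions, the annotation release and the strand setting are not given in the sources used here. Of 39056 mouse identifiers, 38872 were in GENCODE vM21, which gave positions and the lengths of the merged exons of all transcripts of a gene. Total counts were 12717847 to 18624417 per library. Reads carry no molecular identifiers, so this depth covers counting error only, after 17 cycles of PCR.

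Genotypes were compared in R 4.3.3 with edgeR 4.0.16 (filterByExpr, TMM, quasi-likelihood F test, genotype as the single term, Benjamini-Hochberg adjustment over 12481 genes, threshold 0.05). CPM and counts per kilobase used TMM library sizes, log2 CPM a prior count of 2. The standard error was the log2 fold change divided by the square root of F. Library scores were compared over all 12870 splits, and correlations by 100000 permutations within genotype. Sex effects came from 1 fit of 4 groups. Python 3.11.15 with scipy 1.17.1 and matplotlib 3.10.9 made tables and figures.

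The 10 genes and all lists were chosen with earlier results of these data known. Named beside them are at most 5 called genes with the largest change per pathway list, the 2 most alike genes of each called gene, and markers that bear on a result. Mfsd2a, Tlr3, Tlr6, Tlr13, Myd88, Ly96 and Rela, and the receptors at or near 0, were named outside this rule after their values were seen. Alternatives were DESeq2's size factors, no filter, at least 10 counts in every library, the Wald test of DESeq2 1.42.0, voom with quality weights of limma 3.58.1, sex, the cell cycle score or the macrophage markers as a covariate, GC content and length corrected with splines of 5 degrees of freedom, and each library left out. The values of 1 marker gene are not reported here.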

Additional observations from a re-analysis of the deposited data

How the results depend on the processing

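Once the cell cycle score entered as covariate, 0 genes and 0 of the 10 genes were called, against 1597 and 4 in the reported fit. In this fit the log2 fold change of Nfkb2 was 0.0137, and a correction for GC content and length gave 0.00557 for Nfkb2 and -0.0198 for Birc3. The remaining 8 settings called 1117 to 1965 genes, and 4 of the 10 genes each. Leaving out 1 library gave 846 to 2127 called genes and 2 to 5 of the 10 genes, with 2 without *APOE3* 30, *APOE3* 33 or *APOE4* 41. Birc3 then ranged from -0.000713 to 0.0280. The macrophage marker difference ranged from 0.0707 to 0.116, with exact permutation p under 0.05 without *APOE3* 31, *APOE3* 33, *APOE4* 35 or *APOE4* 37, and it was -0.23 (exact permutation p = 0.245) without the 4 shared markers. The count of correlated pairs was 2, and 0 with sex means removed as well. The cause of these changes was not tested. No paired analysis was possible because the animal numbers are not shared between genotypes. Of the 10 genes, depth limits Tlr2 most, at 110 to 240 counts per library.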
